A study of Mus musculus with 83 samples.

Results

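The Hox genes are the homeobox genes that lie side by side in 4 clusters of the mouse genome, named Hoxa, Hoxb, Hoxc and Hoxd. They were taken by gene symbol, and 38 of the 37764 genes in the colon count table were members: 10 of Hoxa, 10 of Hoxb, 9 of Hoxc and 9 of Hoxd. RNA was sequenced from the colon of 83 male C57BL/6J/Ukj mice, 16 aged 3 months, 16 aged 9 months, 16 aged 15 months, 17 aged 24 months and 18 aged 28 months. The labels name no allele and no treatment and say that the animals were held only for ageing. Each library came from 1 mouse, and the study took RNA from the proximal section of the bisected colon, so each library mixed epithelium, muscle wall, nerve and immune cells of that piece. Libraries were prepared in 3 batches, each with between 4 and 7 mice of every age. The comparisons ask which Hox genes differ with age, and whether the differences run evenly through life or fall in an early or a late interval.

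Hox proteins are transcription factors that give cells along the head-to-tail axis their positional identity. Genes of a cluster carry paralog numbers by their order on the chromosome, with low numbers active towards the head and high numbers towards the tail, and adult gut tissue keeps much of the code laid down in the embryo. Genes with the same number in different clusters descend from 1 ancestral gene and often act together. In the hindgut, the paralogs with the highest number, Hoxa13 and Hoxd13, are known for shaping the distal colon, rectum and anal sphincter, and Hoxb13 marks the distal colon and the prostate.

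Levels of different genes are compared in TPM, the transcript share of a library after correction for gene length. Summed over all 38 genes, the mice held 627 ± 47 TPM (SD, n = 83). Hoxb gave 65.0% of that sum and Hoxa 29.3%, while Hoxd gave 5.26% and Hoxc 0.478%. The mean share of Hoxb lay between 63.4% and 66.5% at the 5 ages, and the order of the clusters was the same at each of them. A mean of at least 20 TPM was held by 11 genes, namely Hoxa7, Hoxa10 and Hoxa13 and all of Hoxb3 to Hoxb9 and Hoxb13. Another 13 genes lay between 1 and 20 TPM, 10 between 0.1 and 1 TPM and 4 below 0.1 TPM. No Hoxc gene reached a mean of 1 TPM.

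The 5 highest members came from the middle of the clusters. Hoxb9, which patterns the thoracic region, led with 119 ± 13.7 TPM (SD, n = 83), followed by Hoxb6 with 96.2 ± 16.3 TPM. Hoxa7 had 49.3 ± 7.37 TPM, Hoxb7 44.3 ± 5.71 TPM and Hoxb8, also known for its part in blood cell precursors, 35.2 ± 6.40 TPM. Hoxa7 and Hoxb7, which share a paralog number, lay within 1 SD of each other. Hoxb9 and Hoxb6 also overlapped between mice, with 86.4 to 163 TPM in Hoxb9 and 64.5 to 164 TPM in Hoxb6.

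Members with paralog number 13 differed widely in level. Hoxa13 had a mean of 31.3 TPM, between 17.5 and 47.2 TPM in single mice. Hoxb13 had a mean of 26.5 TPM, but ranged from 3.18 to 53.3 TPM, a coefficient of variation of 46.3% over the 83 mice against 18.1% for Hoxa13. Their means therefore lay closer together than the mice did. Hoxd13 had a mean of 0.461 TPM and a range from 0 to 2.95 TPM, a coefficient of variation of 93.1%. Hoxc13, known for hair and nails, had 4 counts in all mice together and none in 80 of the 83. A limit of 3 counts per mouse corresponds to between 0.0482 and 0.162 TPM for Hoxc13, so a lower level would not have been detectable at this depth.

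**Figure D1:**
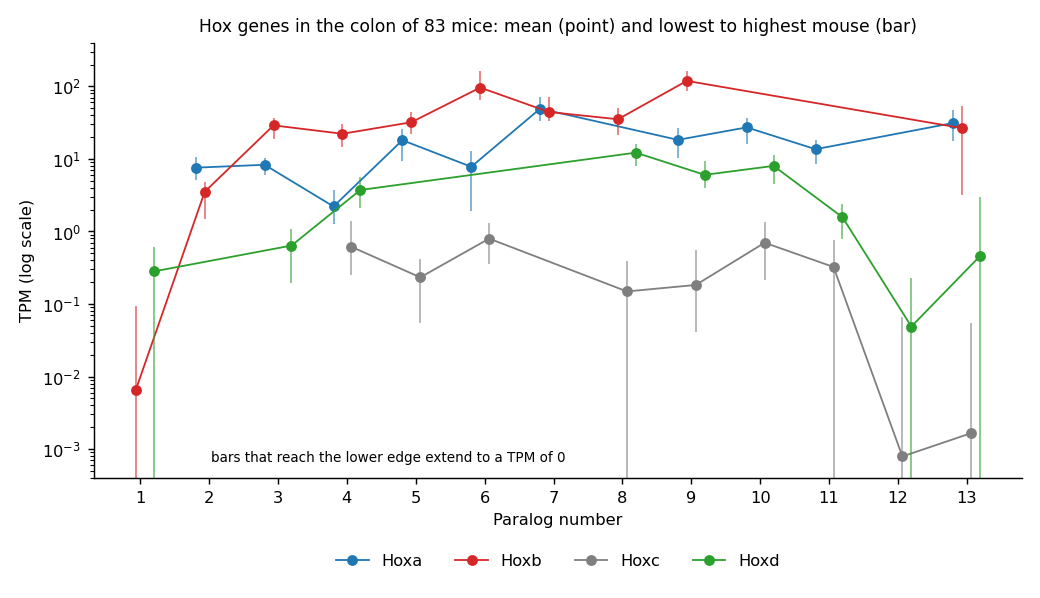
Mean level of the 38 Hox genes in TPM (logarithmic vertical axis) by paralog number (horizontal axis), with 1 colour for each cluster. Points are means over 83 mice and bars run from the lowest to the highest mouse. Hoxb lies on top from paralog 3 to 6 and at 8 and 9, with a peak of 119 TPM at Hoxb9, while Hoxc lies below 1 TPM throughout.

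The DNA just before the start sites shows how unlike the members are as promoters. A RefSeq table of promoters on GRCm38.p6 had an entry for 22 of the 38 genes, with 24 start sites, and the 250 bases before each start were examined. The dinucleotide CG, the site of DNA methylation, occurred a median of 12.5 times in the windows of the members and 6 times over the 32851 promoters of all genes. The lines below show, 5′ to 3′ with CG in capitals, 4 members on which later results turn: Hoxa7 and Hoxd4, whose windows hold 7 and 3 CG, and the number 13 genes Hoxd13 and Hoxa13, with 31 and 35. Of all promoters, 43.0% had more CG than Hoxa7, 62.2% more than Hoxd4, 4.58% more than Hoxd13 and 2.58% more than Hoxa13. For Hoxa7, only the longest stretch without an annotated exon is printed, 112 bases with 4 CG, from chr6:52218712-52218823 on the minus strand. The other windows are chr2:74721728-74721977 (plus strand) for Hoxd4, chr2:74667975-74668224 (plus strand) for Hoxd13 and chr6:52260881-52261130 (minus strand) for Hoxa13.
Hoxa7: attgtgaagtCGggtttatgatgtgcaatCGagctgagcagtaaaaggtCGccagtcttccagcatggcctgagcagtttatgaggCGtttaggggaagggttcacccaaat
Hoxd4: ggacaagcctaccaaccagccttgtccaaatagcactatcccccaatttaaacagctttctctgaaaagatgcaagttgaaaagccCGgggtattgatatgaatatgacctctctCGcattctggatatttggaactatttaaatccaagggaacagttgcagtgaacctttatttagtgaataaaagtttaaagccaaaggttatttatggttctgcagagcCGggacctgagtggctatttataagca
Hoxd13: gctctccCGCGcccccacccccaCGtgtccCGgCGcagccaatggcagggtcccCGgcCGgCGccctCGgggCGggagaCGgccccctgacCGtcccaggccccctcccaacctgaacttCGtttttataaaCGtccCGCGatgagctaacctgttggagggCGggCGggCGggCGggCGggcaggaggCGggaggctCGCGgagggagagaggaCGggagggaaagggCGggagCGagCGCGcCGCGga
Hoxa13: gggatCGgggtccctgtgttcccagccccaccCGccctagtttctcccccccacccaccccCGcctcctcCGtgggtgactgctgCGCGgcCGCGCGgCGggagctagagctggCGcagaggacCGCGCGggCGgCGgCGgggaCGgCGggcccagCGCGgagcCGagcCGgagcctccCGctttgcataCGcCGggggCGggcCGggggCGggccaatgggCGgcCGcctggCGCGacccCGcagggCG
The letters TTTATG, or CATAAA on the other strand, are a core of the binding sites of the caudal factors Cdx1 and Cdx2, which switch on middle Hox genes in the embryo. They stood in 5 of the 24 windows and in 10.8% of all promoters, with 2 matches each before Hoxa7 and Hoxb8 and 1 each before Hoxd3, Hoxd4 and Hoxd11. TGATNNAT, a core of the joint site of Hox proteins with their homeobox cofactors, stood in 4 of the 24 windows and in 7.68% of all promoters. The TATA box letters TATAAA stood in 4 of the 24 and in 12.4% of all, with 2 matches before Hoxd13 that overlap, 1 on each strand of the same stretch. Both strands were searched, and TATAAA and TTTATG overlap where their letters run on. These matches describe the letters only.

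The libraries held from 23026370 to 75838290 counted read pairs, the median being 35495123. The tissue label was checked with marker lists scored as the mean log2 CPM, counts scaled to the size of the library. The score of 6 colon epithelium markers lay between 9.8 and 10.87 in the 83 mice, and that of 5 markers of stratified squamous epithelium between -2.55 and -1.48. In all, 7 mice stood apart from the rest in a score by over 5 scaled median absolute deviations. The smooth muscle score was 7.04, 7.61 and 6.96 in 3-month mice 10, 12 and 16, and 7.64 and 7.95 in 9-month mice 4 and 6, against a median of 9.36. The 28-month mouse 13 had a proximal epithelium score of 6.77 against a median of 8.9, and the 15-month mouse 16 a colon epithelium score of 9.8 against 10.51. Differences between 28 and 3 months are also given without these mice where that changes a call. Of the 16 lists, 6 differed between 28 and 3 months at an adjusted p below 0.1 (permutation test, two-sided). The goblet cell score differed by -0.44, with an adjusted permutation p of 0.00016. The scores of proximal and distal colon epithelium differed by -0.71 and -0.72, with adjusted permutation p-values of 0.0012 and 0.0058, and the endothelial score by 0.18 with 0.00288. The colon epithelium score differed by -0.10 with 0.0319 and the male accessory gland score by -0.11 with 0.0616, the latter from 2 markers near a count of 0. Without the 7 mice the enteric neuron score differed by -0.42 as well, with an adjusted permutation p of 0.0155, while the colon epithelium score differed by -0.06 with 0.178 and the male accessory gland score by -0.10 with 0.126, and neither passed the threshold.

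Counts were tested with edgeR's quasi-likelihood F-test over 18325 genes with age and batch in 1 model, and a gene was called at an adjusted p (Benjamini-Hochberg) below 0.1. The filter on low counts passed 31 of the 38 Hox genes. It left out Hoxb1, Hoxc8, Hoxc9, Hoxc12, Hoxc13, Hoxd1 and Hoxd12. Between 28 and 3 months, the widest interval, 3 Hox genes rose and 6 fell, which is 9 of 31 (29.0%) against 49.4% of all tested genes. By direction, 23.5% of all tested genes rose and 25.9% fell. Hox genes were thus called less often than the background of the whole transcriptome, a difference not tested, and their median absolute log2 fold change was 0.0715 against 0.137 over all genes. In bulk tissue, fewer cells of a type and less RNA per cell cannot be told apart, and this applies to each difference below.

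The calls were spread unevenly over the clusters. Hoxd had 5 of 7 tested genes called, Hoxc 2 of 5, Hoxa 2 of 10 and Hoxb 0 of 9. Of all tested genes, 49.4% were called, 23.5% up and 25.9% down. Hoxd3 and Hoxd4 share exon bases on the same strand with each other or Gm28230, so they may not be separate calls. The calls of Hoxd4, Hoxd11 and Hoxd13 were each lost when certain single mice were left out. Along the clusters, all 3 genes that rose, Hoxc4, Hoxa7 and Hoxd8, had paralog numbers from 4 to 8. Of the 12 tested genes with numbers from 9 to 13, 4 fell, namely Hoxa10, Hoxd11, Hoxc11 and Hoxd13, and none rose. With scores of proximal and distal epithelium in the model, described further on, Hoxa10 and Hoxd13 turned to 0.10 and 0.22 and were not called. In that fit Hoxa9, Hoxa11, Hoxa13 and Hoxb13 were called as higher and Hoxb9 as lower, but none of them without the scores. Hoxb13, Hoxa13 and Hoxa9 had r of 0.93, 0.77 and 0.69 with the distal score. Both scores were lower in the oldest mice, so age and the scores are in part confounded in that fit. Calls made only with the scores are therefore not read as changes with age. Without the scores, the other genes that fell were Hoxd3 and Hoxd4. These counts are a description of 31 genes, and neither a difference between clusters nor one along them was tested.

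**Figure D2:**
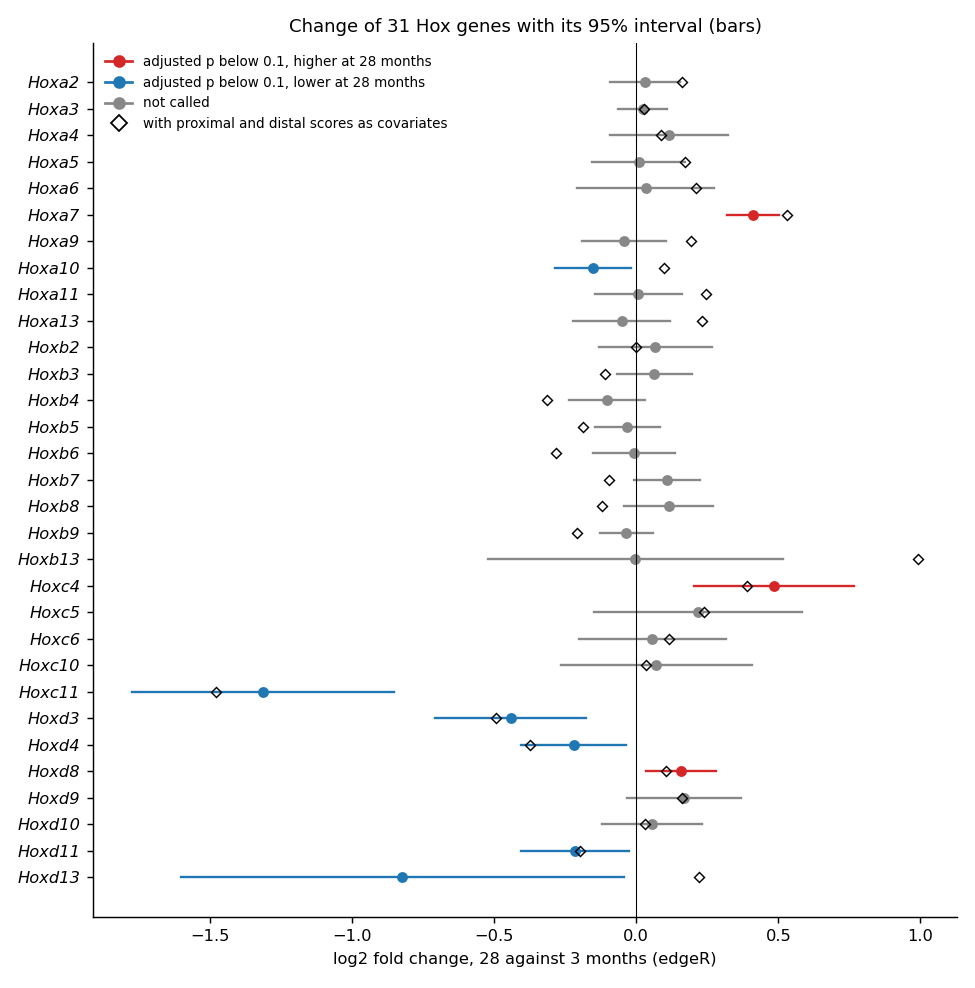
Log2 fold change between 28 and 3 months of the 31 tested Hox genes, ordered by cluster and paralog number, with 95% intervals from edgeR. Open diamonds give the same change in a model that also holds the proximal and distal epithelium scores. Hoxa7 at 0.41 has a narrow interval above 0, and Hoxc11 at -1.31 lies lowest; the diamond of Hoxb13 stands at 0.99.

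Hoxa7, a gene of the middle of the cluster that patterns the trunk, gave the firmest change of all members. At 3 months it lay between 32.9 and 49.8 TPM with a median of 43.6, and at 28 months between 42.9 and 71.3 TPM with a median of 58.1. The groups overlapped little, since 16 of the 18 oldest mice lay above the highest 3-month mouse. The mean climbed at each age, from 42.7 ± 4.65 TPM (SD, n = 16) at 3 months over 45.1, 47.5 and 52.4 TPM to 57.6 ± 5.97 TPM (SD, n = 18) at 28 months. The log2 fold change was 0.41 with an SE of 0.046 and an adjusted p of 1.08e-11 (edgeR), a 1.33-fold rise, with 0.40, 0.48 and 0.39 within batches 1, 2 and 3. It was called within each batch alone, after leaving out any of the 34 mice of these ages, and in all 10 other alternatives tried for it. Of the exon bases of Hoxa7, 20.4% also lie in the antisense gene Hoxaas3, and the study counted reads by strand. Hoxa10, which patterns the lower trunk and the uterus, had a median of 28.5 TPM at 3 months (22.0 to 36.2) and of 27.2 TPM at 28 months (17.3 to 37.0). The 2 groups overlapped almost entirely. Hoxa10 fell by 0.15 on the log2 scale with an SE of 0.068 and an adjusted p of 0.0619 (edgeR), but the difference within batch 2 was -0.01. Without the 7 mice that stood apart it was -0.13 with an adjusted p of 0.105 (edgeR). Outside single batches and single mice left out, Hoxa10 was called in 5 of 10 alternatives. Leaving out any 1 of 9 mice ended this call, with adjusted p-values up to 0.158: 3-month mice 4, 5, 10, 11 and 14, and 28-month mice 1, 6, 7 and 12. The remaining 8 tested Hoxa genes had log2 fold changes between -0.05 and 0.12 and were not called.

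No Hoxb gene was called between 28 and 3 months, although Hoxb holds the highest levels. Their log2 fold changes lay between -0.10 for Hoxb4 and 0.11 for Hoxb8, with adjusted p-values from 0.13 to 0.994 (edgeR). Without the 7 mice that stood apart, Hoxb4 passed the threshold with -0.17 and an adjusted p of 0.0494 (edgeR), and with smooth muscle and epithelium scores in the model with -0.16 and 0.0453. Hoxb7 passed it in 12 of the 34 fits that left out 1 mouse, with adjusted p-values down to 0.0525. Of the tested Hoxb genes, Hoxb13 varied most between mice. It lay between 6.06 and 50.3 TPM at 3 months with a median of 26.0, and between 3.18 and 44.8 TPM at 28 months with a median of 27.2. Both groups covered nearly the same range. Its 95% interval reached from -0.52 to 0.52 on the log2 scale, and the within-batch values were 0.07, 0.57 and -0.53.

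Of the Hoxc genes, which all had few counts, Hoxc4 rose and Hoxc11 fell. Hoxc4, known in B cells as an activator of the antibody-diversifying enzyme AID, lay between 0.251 and 1.39 TPM at 3 months with a median of 0.493, and between 0.499 and 1.33 TPM at 28 months with a median of 0.777. All 18 of the oldest mice lay above the 3-month median, but none above the highest 3-month mouse. The log2 fold change was 0.48 with an SE of 0.143 and an adjusted p of 0.00439 (edgeR), and 0.68, 0.44 and 0.31 within the batches. The B and plasma cell score differed by -0.50 in the same mice, with an adjusted permutation p of 0.169. Hoxc11, which acts with its paralogs in the limb and the kidney, lay between 0.144 and 0.773 TPM at 3 months with a median of 0.533, and between 0 and 0.465 TPM at 28 months with a median of 0.162. All 18 old mice lay below the 3-month median and 8 below the lowest 3-month mouse. It fell by 1.31 on the log2 scale with an SE of 0.235 and an adjusted p of 4.26e-06 (edgeR), with -1.06, -2.09 and -1.24 within the batches. This rests on 207 read pairs summed over the 16 youngest mice and 97 over the 18 oldest. Both calls held after leaving out any of the 34 mice. Hoxc5, Hoxc6 and Hoxc10 were not called, with values between 0.06 and 0.22.

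In Hoxd, Hoxd8 rose while Hoxd3, Hoxd4, Hoxd11 and Hoxd13 fell. Hoxd8, a gene of the middle of the cluster, lay between 8.81 and 13.7 TPM at 3 months with a median of 11.8, and between 9.84 and 15.5 TPM at 28 months with a median of 13.2. Of the oldest mice, 15 of 18 lay above the 3-month median and 7 above the highest 3-month mouse. The log2 fold change was 0.16 with an SE of 0.063 and an adjusted p of 0.0381 (edgeR), and 0.17, 0.17 and 0.16 within the batches. Without the 7 mice that stood apart it was 0.11 with an adjusted p of 0.197 (edgeR), and with smooth muscle and epithelium scores in the model 0.10 with 0.222.

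Hoxd3 and Hoxd4, both known for patterning the neck vertebrae, are hard to tell apart in these counts. Of their exon bases, 62.3% in Hoxd3 and 52.3% in Hoxd4 lie in another annotated gene on the same strand, either the other of the pair or Gm28230, so how reads were split between them is uncertain. Hoxd3 lay between 0.496 and 1.08 TPM at 3 months with a median of 0.762, and between 0.345 and 0.992 TPM at 28 months with a median of 0.544. Of the old mice, 16 lay below the 3-month median and 7 below the lowest 3-month mouse. It fell by 0.44 on the log2 scale with an SE of 0.135 and an adjusted p of 0.0058 (edgeR), with -0.14, -0.50 and -0.66 within the batches. Hoxd4 had a median of 4.30 TPM at 3 months (2.16 to 5.65) and of 3.61 TPM at 28 months (2.61 to 4.41). No old mouse left the range of the young ones, and 15 lay below their median. It fell by 0.22 with an SE of 0.094 and an adjusted p of 0.0521 (edgeR). Outside single batches and single mice left out, Hoxd4 was called in 9 of 10 alternatives. The call of Hoxd3 held without any 1 of the 34 mice, whereas that of Hoxd4 was lost without any 1 of 7, namely 3-month mice 2, 3, 7, 8 and 12 and 28-month mice 1 and 6, with adjusted p-values up to 0.138.

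Hoxd11, needed with Hoxa11 for the forearm and the kidney, had a median of 1.88 TPM at 3 months (1.11 to 2.38) and of 1.49 TPM at 28 months (1.13 to 2.23). The ranges were nearly the same, and 16 old mice lay below the 3-month median. It fell by 0.22 on the log2 scale with an SE of 0.097 and an adjusted p of 0.0637 (edgeR), and the call was lost without any 1 of 8 mice, namely 3-month mice 2, 3, 6, 7, 11 and 13 and 28-month mice 1 and 17, with adjusted p-values up to 0.166. Hoxd13 lay between 0.0804 and 2.95 TPM at 3 months with a median of 0.352, and between 0 and 0.99 TPM at 28 months with a median of 0.275. Only 10 of the 18 old mice lay below the 3-month median. It fell by 0.82 with an SE of 0.398 and an adjusted p of 0.0868 (edgeR), and without the 3-month mouse 4, which held the 2.95 TPM, the difference was -0.36 with an adjusted p of 0.493. In all, 15 of the 34 mice each ended this call when left out: besides that mouse, 3-month mice 5, 8, 13 and 14 and 28-month mice 1, 5, 6, 7, 8, 9, 11, 12, 13 and 18. Outside single batches and single mice left out, Hoxd11 was called in 8 of 10 alternatives and Hoxd13 in 4 of 9. Hoxd9 and Hoxd10 had values of 0.17 and 0.06 and were not called.

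**Figure D3:**
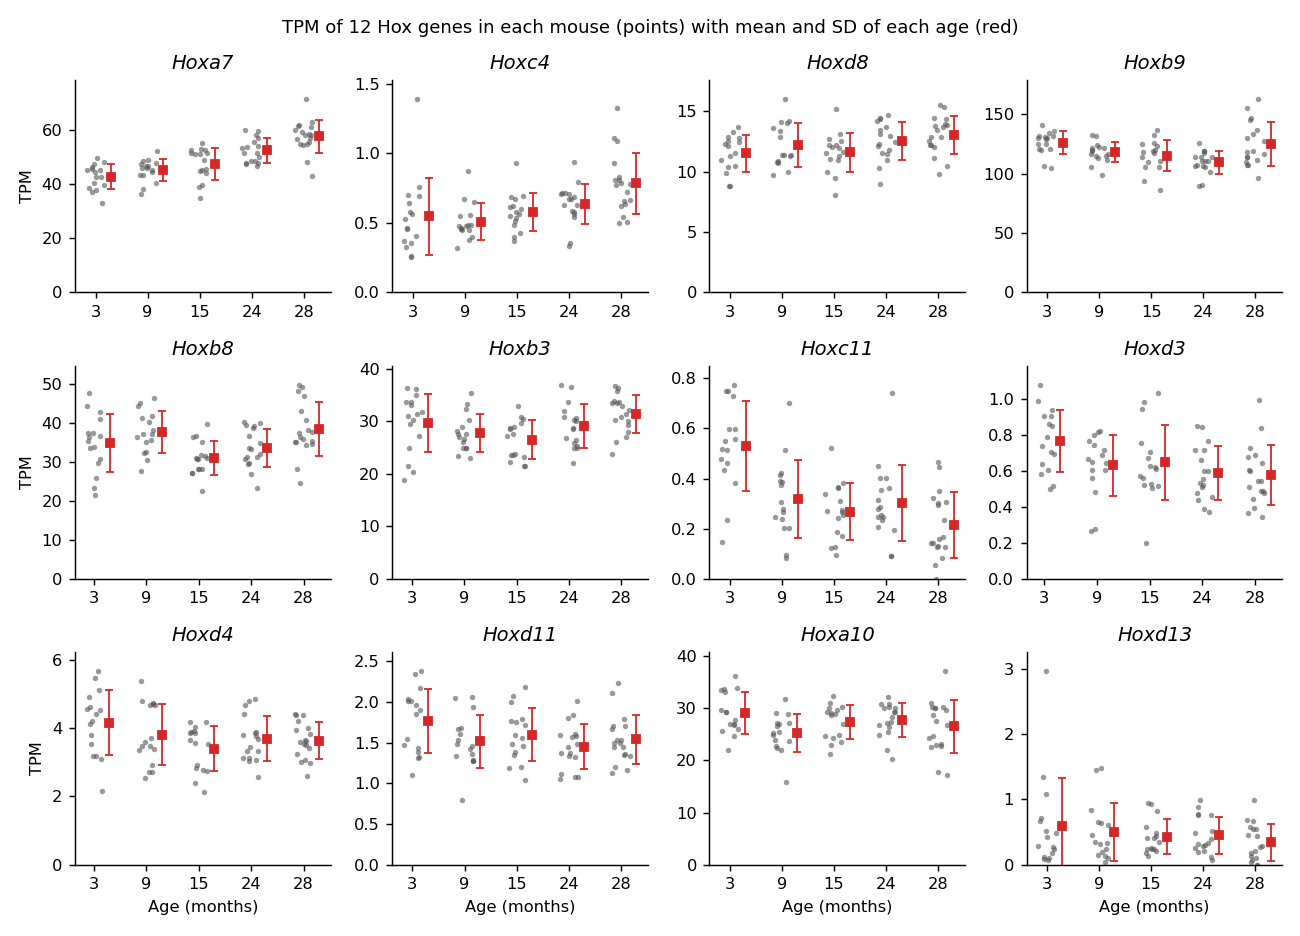
Level in TPM (vertical axis) of 12 Hox genes in each mouse at 3, 9, 15, 24 and 28 months (horizontal axis), with the mean and SD of each age. The mean of Hoxa7 climbs from 42.7 to 57.6 TPM over the 5 ages, Hoxb9 dips to 110 TPM at 24 months, and 1 mouse at 3 months stands at 2.95 TPM for Hoxd13.

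The steps between neighbouring ages held few Hox calls. From 3 to 9 months 1 of 31 genes was called against 8.69% of all tested genes. This was Hoxc11, which fell by 0.72 with an SE of 0.229 and an adjusted p of 0.053 (edgeR), from a mean of 0.529 ± 0.179 TPM (SD, n = 16) to 0.320 ± 0.156 TPM (SD, n = 16), with -0.47, -0.59 and -1.14 within the batches. The call was lost without the filter on low counts (adjusted p 0.116), without the 7 mice that stood apart (0.117) and within each batch alone (0.147 to 0.921, edgeR), with a fall in each of these fits. From 9 to 15 months, where 0.431% of all genes were called, no Hox gene was called by edgeR or DESeq2, and 1 had an unadjusted p below 0.05 by edgeR. From 15 to 24 months, with 13.5% of all genes called, none was called by either tool, and 2 had an unadjusted p below 0.05 by edgeR. From 24 to 28 months 2 of 31 rose, Hoxa7 and Hoxb9, against 11.7% of all genes, 5.66% with a rise. Hoxa7 rose by 0.12 with an SE of 0.045 and an adjusted p of 0.0855, and Hoxb9 by 0.17 with an SE of 0.047 and an adjusted p of 0.0185 (edgeR). The call of Hoxa7 was lost without the filter (0.144) and without a batch term (0.124), and that of Hoxb9 with proximal and distal scores in the model, where it was 0.03 with 0.899 (edgeR).

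Longer intervals, which share mice with each other and with those above, added genes that 28 against 3 months did not show. From 3 to 24 months 6 of 31 were called against 34.5% of all genes: Hoxa7 rose by 0.29, while Hoxb9 fell by 0.20, Hoxb4 by 0.16, Hoxc11 by 0.78, Hoxd3 by 0.37 and Hoxd11 by 0.27. The call of Hoxb4 had an adjusted p of 0.0814 and was lost without the filter (0.157), with the replicate number as a block (0.124, edgeR) and by DESeq2 (0.102). From 15 to 28 months 5 of 31 rose and none fell, against 42.4% of all genes called and 20.2% with a rise. The genes that rose were Hoxc4 by 0.36, Hoxd9 by 0.25, Hoxb8 by 0.23, Hoxa7 by 0.22 and Hoxb3 by 0.18. The proximal and distal epithelium scores moved over the same ages, with means of 9.15 and 4.94 at 15 months and 8.10 and 4.50 at 28 months. With both scores in the model only Hoxa7 of these 5 stayed past the threshold, with 0.30, and the others had adjusted p-values from 0.129 to 0.907 (edgeR). From 3 to 15 months 2 were called (7.75% of all genes), with 0.19 for Hoxa7 and -0.93 for Hoxc11. From 9 to 24 months 2 were called (15.5%), with 0.18 for Hoxa7 and -0.13 for Hoxb9. From 9 to 28 months 4 were called (40%), with 0.55 for Hoxc4, 0.30 for Hoxa7, 0.27 for Hoxa6 and -0.60 for Hoxc11. Of these, Hoxa6 had an SE of 0.124 and an adjusted p of 0.0905, which was 0.154 without the filter on low counts, 0.101 without a batch term, 0.118 with smooth muscle and epithelium scores and 0.121 without the 7 mice that stood apart. Hoxc11 had an SE of 0.252 and 0.0581, which was 0.102 without the filter, while Hoxc4 and Hoxa7 had 0.00188 and 2.97e-07 (edgeR). Over all 10 pairs of ages, 15 members were called at least once and 16 never. The matching share of all tested genes is not given. In 28 against 3 months alone 49.4% of them were called, so the 15 are not read as a result about the members.

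Tested over all ages at once, 6 of 31 members differed, Hoxa7, Hoxb8, Hoxb9, Hoxc4, Hoxc11 and Hoxd3, against 54.9% of all genes. A course that bends with age, tested against a straight line, was called for 2 of 31, Hoxb9 and Hoxb8, with adjusted p-values of 0.0281 and 0.044 (edgeR), against 16.2% of all genes. With the proximal and distal scores in the model, Hoxc4 was no longer called over all ages (adjusted p 0.216) and the bend of Hoxb9 was no longer called (0.303, edgeR). The mean level of Hoxb9 was 126, 118, 115, 110 and 125 TPM from the youngest to the oldest age. At 3 months its median was 129 TPM, and 11 of the 18 oldest mice lay below it. At 24 months the mice lay between 89.9 and 126 TPM with a median of 111, and at 28 months between 96.1 and 163 TPM with a median of 119, so the groups overlapped. Hoxb8 had 34.9, 37.7, 31.1, 33.6 and 38.4 TPM as means of the 5 ages, and Hoxb3, nearer the head end of the cluster, 29.7, 27.8, 26.5, 29.1 and 31.4 TPM. Both were lowest at 15 months. Their change from 15 to 28 months exceeded that from 3 to 15 months, by 0.30 with an adjusted p of 0.0943 for Hoxb3 and by 0.35 with 0.0971 for Hoxb8 (edgeR), which made 2 of 31 against 16.5% of all genes, 7.45% with the larger change in the later interval. With the proximal and distal scores in the model neither was called, with adjusted p-values of 0.398 and 0.593 (edgeR). For Hoxa7 the same difference was 0.03 with a 95% interval from -0.13 to 0.19.

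Among the 7 members left out by the filter, 2 passed the threshold when all genes were tested without it, where 25.1% of all genes did. Hoxd1, the member of Hoxd expressed closest to the head, lay between 0.21 and 0.61 TPM at 3 months with a median of 0.39, and between 0.0425 and 0.528 TPM at 28 months with a median of 0.211. Of the 18 old mice, 15 lay below the 3-month median and 9 below the lowest 3-month mouse, on 144 and 92 read pairs per age in all. Its log2 fold change was -0.80 with an SE of 0.25 and an adjusted p of 0.0136 by edgeR and 0.00602 by DESeq2. Hoxc9, a gene of thoracic motor neuron identity, had a median of 0.138 TPM at 3 months and 0.275 TPM at 28 months. Its ranges of 0.0428 to 0.317 and 0.0535 to 0.552 TPM overlapped, and its log2 fold change was 0.60 with an adjusted p of 0.0505 by edgeR. Hoxc8 and Hoxd12 gave 0.46 and -0.66 and were not called. Hoxb1 had 16, Hoxc13 had 4 and Hoxc12 had 1 read pair in all mice together, too few for any comparison.

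Among mice of the same age and batch, Hox genes of a cluster moved up and down together. Correlations were taken over the 83 mice on log2 CPM centred within age and batch. The points share a library, its mix of cells and the exact piece of colon. Of 465 pairs of tested members, 142 were positively and 70 negatively related at an adjusted permutation p below 0.1. In the same cluster the median r was 0.39 over 112 pairs, with 73 positive and 7 negative calls. Between clusters it was 0.02 over 353 pairs, with 69 positive and 63 negative calls. Neighbouring paralog numbers of a cluster had a median r of 0.45 over 21 pairs, and of 0.65 over the 12 pairs in which both genes had a mean count of at least 100. Pairs of a cluster 4 or more numbers apart had a median of 0.25 over 61 pairs, and of 0.40 over 38 pairs with such counts. Genes with the same number in different clusters had 0.08 over 30 pairs, and -0.07 over 11 pairs with such counts. Medians over pairs are a description, since pairs share genes.

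The highest correlations joined genes of the same cluster. Hoxa9 and Hoxa10 had r = 0.87 and rho = 0.86, Hoxb4 and Hoxb6 had r = 0.85 and rho = 0.89, and Hoxb6 and Hoxb7 had r = 0.84 and rho = 0.83 (n = 83). Next came Hoxa10 with Hoxa13 (r = 0.83, rho = 0.80) and Hoxa9 with Hoxa13 (r = 0.81, rho = 0.78), which lie further apart in number. Each p was 1e-05, the smallest the permutation test can give, with adjusted values of 8.94e-05 for r and 0.000103 for rho. Without the 2 mice farthest from the median, r was 0.84, 0.87, 0.81, 0.80 and 0.78. Across clusters the number 13 genes stood together, with r = 0.75 and rho = 0.69 for Hoxa13 and Hoxb13 and r = 0.66 and rho = 0.69 for Hoxb13 and Hoxd13, and 0.72 and 0.67 without the 2 mice. Hoxa13 and Hoxb7 went opposite ways, with r = -0.70 and rho = -0.71, and Hoxb6 and Hoxb13, of the same cluster, with r = -0.63 and rho = -0.51. These 4 pairs also had the smallest permutation p of 1e-05, with the adjusted values given above. The number 13 did not set its genes apart, since Hoxb13 also had r = 0.71 with Hoxa9, 0.70 with Hoxa10 and 0.68 with Hoxa7. Hoxa13 and Hoxd13 had r = 0.57. All 212 called pairs had the same sign without the 2 mice, and also without the 7 mice that stood apart.

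**Figure D4:**
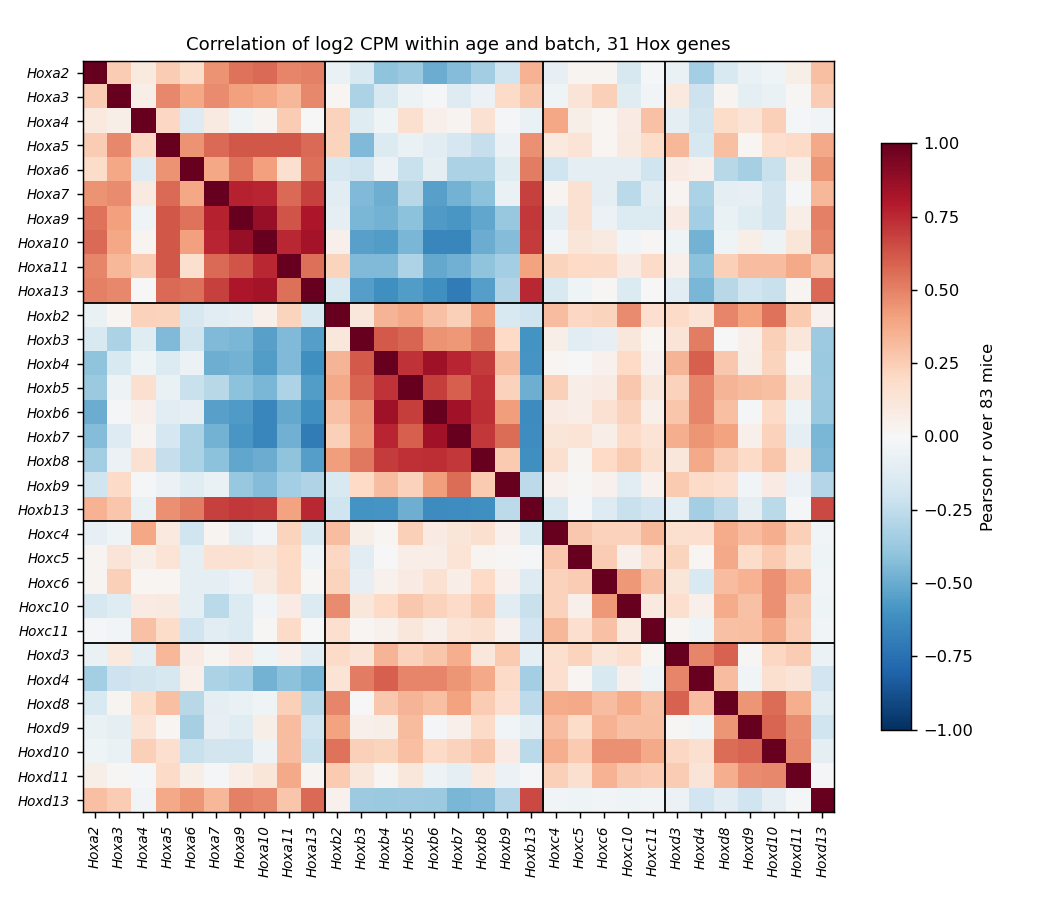
Pearson's r between the 31 tested Hox genes over 83 mice, on log2 CPM centred within age and batch, with genes ordered by cluster and paralog number along both axes and r shown by colour from negative (blue) to positive (red). Blocks of red along the diagonal are clusters; the posterior Hoxa genes and Hoxb13 form a red patch away from it, and are blue against Hoxb3 to Hoxb8.

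Many Hox genes varied with the distal or the proximal epithelium score. The distal epithelium score, from Prdx6, Tgm3, Eno3 and Ly6g, was positively related to 11 members and negatively to 10 of 31, in 496 pairs of a member and a score tested together. Hoxb13 had r = 0.93 and rho = 0.90 with it over 83 mice, and Hoxa13 had r = 0.77 and rho = 0.72. Their permutation p was 1e-05 each, with adjusted values of 0.000248 for r and 0.000331 for rho. Hoxa9, Hoxa10, Hoxa7 and Hoxd13 followed, with r of 0.69, 0.68, 0.65 and 0.62, rho of 0.63, 0.55, 0.56 and 0.67, and the same p. On the other side stood Hoxb7 with r = -0.64 and rho = -0.49, Hoxb3 with -0.61 and -0.56, Hoxb6 with -0.57 and -0.43 and Hoxb8 with -0.57 and -0.55. Their adjusted permutation p-values were 0.000248 for r and between 0.000331 and 0.00389 for rho. By cluster, 9 of the 10 tested Hoxa genes were positively related, while 7 of the 9 tested Hoxb genes, Hoxb3 to Hoxb9, were negatively related and Hoxb13 positively. In Hoxd, Hoxd13 was positive and Hoxd4, Hoxd8 and Hoxd10 were negative. The proximal score was positively related to 3 members, Hoxa2, Hoxa10 and Hoxa11, and negatively to 5, Hoxb4 to Hoxb7 and Hoxb9, by the permutation test of r. Those 3 Hoxa genes were positively related to both scores, and those 5 Hoxb genes negatively to both. For these genes the scores did not run as opposites, and whether they measure colon segment was not tested. Without the 2 farthest mice r with the distal score was 0.90 for Hoxb13, 0.75 for Hoxa13, 0.61 for Hoxa7 and -0.60 for Hoxb7. No tested Hoxc gene was called against either score by the permutation test of r.

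**Figure D5:**
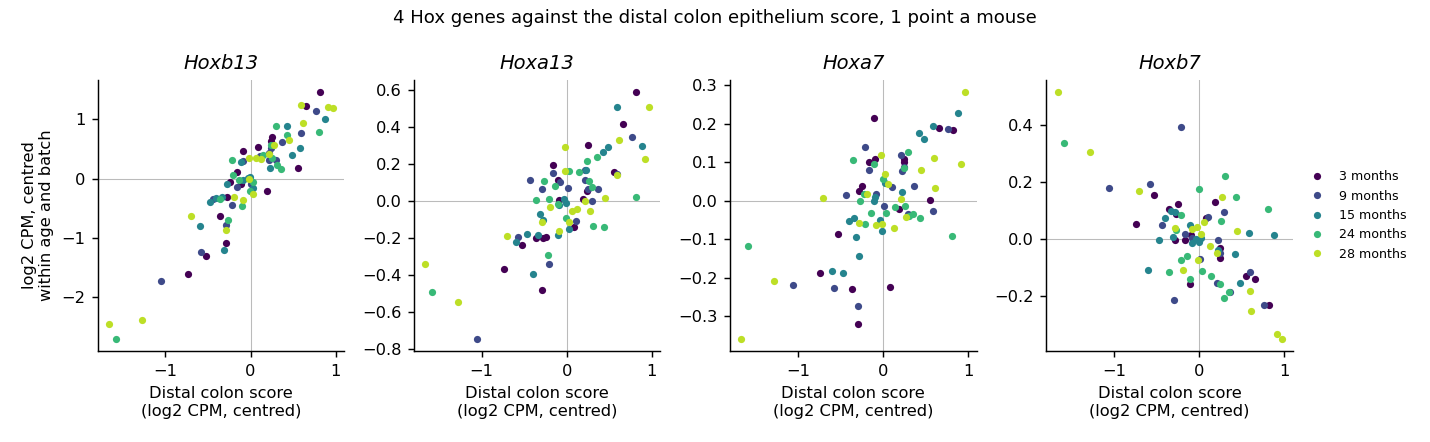
Log2 CPM of Hoxb13, Hoxa13, Hoxa7 and Hoxb7 (vertical axes) against the distal epithelium score (horizontal axis, mean log2 CPM of 4 markers), both centred within age and batch, with 1 point per mouse coloured by age. Hoxb13 follows the score closely with r = 0.93, Hoxa13 and Hoxa7 less so with 0.77 and 0.65, and Hoxb7 falls with it with r = -0.64.

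Other scores picked out other members. Hoxb2, an anterior gene known for the hindbrain and its nerves, had r = 0.67 and rho = 0.45 with the smooth muscle score and r = 0.67 and rho = 0.48 with the enteric neuron score over 83 mice. Adjusted permutation p-values were 0.000382 and 0.000248 for r and 0.00628 and 0.00231 for rho, and r was 0.59 with both scores without the 2 farthest mice. Without the 7 mice that stood apart, 5 of them in the smooth muscle score, r was 0.26 with smooth muscle and 0.39 with enteric neuron. Hoxa11 was related to the fibroblast score with r = 0.64 and rho = 0.63 and to the smooth muscle score with r = 0.62 and rho = 0.70, each with adjusted permutation p-values of 0.000248 and 0.000331. These r were 0.62 and 0.75 without the 7 mice. Hoxb9 was negatively related to the macrophage score, with r = -0.62 and rho = -0.53 and the same p-values, and to the proximal epithelium score with r = -0.55 and rho = -0.42, where they were 0.00183 and 0.00749. Without the 2 farthest mice r was 0.64 and 0.57 for Hoxa11 and -0.57 and -0.47 for Hoxb9. Of the 496 pairs, 163 were called by r and 148 by rho.

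Since the distal and proximal scores both differed between 28 and 3 months, the age comparison was also fitted with these 2 scores in the model. The fit then called 14 of 31, 7 up and 7 down, of which 5 were among the 9 named above, against 41.5% of all tested genes called in the same fit, 20.4% up and 21.1% down. Hoxb13 was 0.99 higher on the log2 scale with an adjusted p of 1.75e-08 (edgeR), Hoxa11 0.25 higher with 0.0133, Hoxa13 0.23 higher with 0.00529 and Hoxa9 0.19 higher with 0.0207. Hoxa2, at the head end of its cluster, was 0.16 higher with 0.0723. None of these 5 was called without the scores. Hoxb4 differed by -0.31, Hoxb6 by -0.28, Hoxb9 by -0.21 and Hoxb5 by -0.19, with adjusted p-values between 0.000165 and 0.0123. Hoxa7, Hoxc4, Hoxc11, Hoxd3 and Hoxd4 stayed past the threshold with 0.53, 0.39, -1.48, -0.49 and -0.37. The other 4 calls were lost. Hoxd8 had 0.10 and Hoxd11 -0.20 with adjusted p-values of 0.277 and 0.189, in the same direction as before, whereas Hoxa10 and Hoxd13 turned to 0.10 and 0.22 with 0.197 and 0.687 (edgeR). Both scores were lower at 28 months, so their effect and that of age are in part confounded in this fit, and the part of colon segment in the age differences was not tested.

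Genes that work with or upon Hox genes were examined as 4 lists. Of 9 TALE homeobox genes, whose proteins bind DNA as partners of Hox proteins, 4 were called between 28 and 3 months, with a list median of -0.003 against -0.009 over all genes. This share and those of the upstream regulators stand beside the 49.4% called among all tested genes. Meis2 rose by 0.27 and Meis1 by 0.23, with adjusted p-values of 0.0541 and 0.0813, and Pknox1 fell by 0.23 with 7.24e-06 (edgeR). Of 10 upstream regulators 8 were tested and 5 called, 1 up and 4 down, with a median of -0.10. Cyp26b1, which breaks down retinoic acid, an inducer of anterior Hox genes, rose by 0.99 with an adjusted p of 0.0165, from a mean of 2.12 to 4.25 TPM. The caudal factor Cdx1 fell by 0.23 with 0.000171, from 586 to 511 TPM, Cdx2 by 0.16 with 0.0355 and the axial growth factor Gdf11 by 0.27 with 0.0074 (edgeR). Both caudal factors are made in epithelium, whose score differed by -0.10, and its part in their fall was not tested.

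Polycomb and trithorax proteins keep Hox genes off or on through cell divisions. Of 19 such genes, 12 were called, 5 up and 7 down, against 49.4% of all genes. Among those that rose were the Polycomb members Cbx7 by 0.52, Bmi1 by 0.23 and Phc1 by 0.12, with adjusted p-values of 1.87e-12, 0.000393 and 0.00249 (edgeR). Among those that fell were Men1, of the trithorax type, by 0.33, and the Polycomb members Cbx8 by 0.29 and Cbx2 by 0.23, with 1.15e-05, 4.26e-05 and 0.000105. Of 10 noncoding transcripts of the clusters 9 were tested and 3 called, against the same 49.4% of all genes. Hotairm1, at the anterior end of Hoxa, rose by 0.72 with an adjusted p of 4.35e-05, from a mean of 1.58 to 2.66 TPM. Hoxd3os1, antisense in the region of Hoxd3 and Hoxd4, rose by 0.51 with 3.31e-05, from 1.52 to 2.21 TPM, while both of those genes fell. Hottip, at the posterior end of Hoxa, fell by 0.43 with 0.026, from 8.89 to 6.72 TPM, while its neighbour Hoxa13 gave -0.05 and was not called.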

How the data were processed

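The authors trimmed the reads with cutadapt 2.8, aligned them with HISAT2 2.1.0 to GRCm38, kept uniquely mapped reads with SAMtools 1.9 and counted read pairs per gene, by strand, with featureCounts of Subread 2.0.1. The deposited raw counts are whole numbers per gene and mouse, not normalized. Ages and batches come from the sample labels.

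Genes were filtered with filterByExpr by age group, scaled by TMM and fitted in edgeR 4.0.16 (R 4.3.3) over all 83 mice with age and batch, and 18325 genes were tested. P-values were adjusted (Benjamini-Hochberg) within each comparison at a threshold of 0.1. TPM was computed from merged exon lengths of a GRCm38 annotation holding 37652 of the 37764 genes; mean TPM by age carries no batch term. Scores and correlations were taken on log2 CPM (prior count 2), by two-sided permutation tests with 100000 resamples, within age and batch for correlations (Python 3.11.15, numpy 2.4.6, scipy 1.17.1). Data for 28 against 3 months were simulated over 18262 genes. Recovered were 30 of 50 genes with a log2 change of 0.25, 42 of 50 with 0.5, 38 of 50 with -0.5 and 48 of 50 with 1. Of the 181 calls, 23 were unchanged genes. The real comparison called 9046 genes, so the adjusted threshold differs and these shares need not carry over to it.

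Alternatives were DESeq2 1.42.0, other filters and scalings, a stricter threshold, no batch term, single batches, single mice left out, the replicate number as a block, and scores as covariates. Named are members past the threshold in 28 against 3 months or between neighbouring ages, the 5 highest members, those with paralog number 13, and up to 3 rises and 3 falls per list; Hoxd1 and Hoxc9, the members called in longer intervals only, and the correlated pairs were chosen after their values were seen. The members and lists were chosen with earlier results of these data known. A further gene that the naming rule selects is not reported here.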

Additional observations from a re-analysis of the deposited data

Results flagged for a closer look

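A pair of Hoxb genes changed differently in the later and the earlier part of life by a test of that difference itself. For Hoxb3 the log2 change from 15 to 28 months minus that from 3 to 15 months was 0.295 with an SE of 0.119 and an adjusted p of 0.0943 (edgeR), and for Hoxb8 it was 0.347 with an SE of 0.141 and an adjusted p of 0.0971. These were 2 of 31 members (6.45%), against 16.5% of all tested genes, 7.45% with the larger change in the later interval. Neither call passed a threshold of 0.05. Both were lost without the filter on low counts, with adjusted p-values of 0.151 and 0.154, and with proximal and distal scores in the model, with 0.398 and 0.593. That of Hoxb3 was also lost without a batch term (0.101) and with the replicate number as a block (0.107, edgeR). Means over the mice were lowest at 15 months for both genes, with 26.5 TPM for Hoxb3 and 31.1 TPM for Hoxb8.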

How the results depend on the processing

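Among the Hox genes called between 28 and 3 months, Hoxa7, Hoxc4, Hoxc11 and Hoxd3 passed the threshold in every alternative tried for them outside single batches. The count of 9 lay between 6 and 10 when 1 mouse was left out. It was 14 with proximal and distal scores in the model, 3 within each batch alone, which holds fewer mice, and 5 at an adjusted p below 0.05. With those scores Hoxa9, Hoxa10, Hoxa13, Hoxb13 and Hoxd13 turned to 0.19, 0.10, 0.23, 0.99 and 0.22, and Hoxb3, Hoxb7 and Hoxb8 to -0.11, -0.10 and -0.12; the cause was not tested. The counts that follow stand without the share of all genes called in the same fit. They allow no comparison with the background. Proximal and distal scores gave 4 called from 3 to 9 months, 3 from 9 to 15, 4 from 15 to 24 and 1 from 24 to 28. They gave 14 from 3 to 24, 14 from 9 to 24, 17 from 9 to 28, 15 over all ages and 0 for late against early change. Smooth muscle and epithelium scores gave 2 from 3 to 9 months, 1 from 9 to 15, 4 from 3 to 15 and 11 over all ages. Without the 7 mice apart, chosen after seeing the data, 10 were called over all ages and 4 for late against early change. Without the filter, counts were 0 from 3 to 9 months, 1 from 24 to 28, 1 from 9 to 24, 2 from 9 to 28 and 0 for late against early change, and with at least 10 counts in every mouse 0 from 3 to 9, 1 from 3 to 15 and 2 from 9 to 28. Single batches gave 0 each from 3 to 9 months, and 1, 0 and 0 from 24 to 28. Fits of only the ages compared gave 2 from 15 to 24 months, 1 from 3 to 15 and 4 from 9 to 24. Without a batch term, 1 was called from 24 to 28 months and 1 for late against early change. At 0.05, counts were 0 from 3 to 9 months, 1 from 24 to 28, 1 from 9 to 24, 2 from 9 to 28 and 0 for late against early change. DESeq2 called 10 between 28 and 3 months.

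Equal replicate numbers at different ages marked no pairing: the median r of 161 such pairs was 0.0205, with 31 above 0.1. With the replicate number as a block, 7 were called between 28 and 3 months, 1 from 15 to 24 and 1 for late against early change. Depth limits Hoxc, Hoxb1, Hoxd1, Hoxd12 and Hoxd13 most, with mean counts below 30 per mouse. The replicates are separate mice, so p-values cover the spread between mice of 1 colony.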
